A study of Homo sapiens with 6 samples.

Results

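Depletion of DDX18 was examined within HES2, an established line of human embryonic stem cells, using the 3 HES2 RNA sequencing libraries among the 6 of the study. The libraries were taken by their labels alone. They comprise 1 library of HES2 cells infected with shLuc virus, a control short hairpin named for luciferase, 1 library with the hairpin shDDX18#1 and 1 library with the hairpin shDDX18#3. The cells were grown on irradiated mouse embryonic fibroblast feeders in medium with bFGF and were collected on day 4 of the infection. The labels do not say whether feeder cells were removed before lysis or whether the HES2 stock was a clone. They also do not say whether separate cultures were used for the 3 libraries. The p-values below set a change only against the spread between the shDDX18#1 and shDDX18#3 libraries, with variance borrowed across genes. The single shLuc library adds no spread of its own, so the p-values are not a measure of spread between separate cultures. The other 3 libraries of the study, from the line H9, were not used. The purpose, in the study's design text, was to learn how DDX18 helps such cells to keep their identity.

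DDX18 belongs to the DEAD-box family of RNA helicases and works in the nucleolus, where RNA polymerase I transcribes ribosomal RNA and where the ribosomal subunits begin to be assembled. When assembly is disturbed, free ribosomal proteins such as RPL5 and RPL11 are known to bind MDM2, the ubiquitin ligase that keeps p53 low. Undifferentiated stem cells are held by a network of transcription factors around OCT4, SOX2 and NANOG, and cells that leave this state turn on regulators of endoderm, mesoderm, ectoderm or extraembryonic tissue.

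The deposited values are reads per 1000000 of an effective library size (CPM), and they resolve into whole reads, of which the shLuc, shDDX18#1 and shDDX18#3 libraries hold 4271741, 2966308 and 3391529. A single read is worth 0.224, 0.322 and 0.278 CPM in that order, and 3 reads, taken as the floor, 0.671, 0.965 and 0.835 CPM. Differences were taken on log2(CPM + 1), which understates the change of low genes. Of the 17929 genes in the table, the 16426 with at least 1 CPM in at least 2 of the 3 libraries were tested, and 1503 were left out. The verbs rose and fell are used only for genes that passed the test of both knockdown libraries against shLuc (limma with an intensity trend, Benjamini-Hochberg adjusted p under 0.05), and a change is the mean log2 difference of the knockdown libraries from shLuc. Wherever a pair of knockdown values is given, shDDX18#1 comes before shDDX18#3.

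DDX18 itself fell with both hairpins. Its level was 161 CPM with shLuc, 39.3 with shDDX18#1 and 60.4 with shDDX18#3, which is 24.5% and 37.6% of the control level, and the mean change was -1.70 (SE 0.26, adjusted p 0.00265). The library with the lower DDX18 level was shDDX18#1.

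Across the transcriptome 1490 genes rose, 9.07% of those tested, and 828 fell, 5.04%. Whether or not they passed the test, 1327 genes, 8.08%, were at least 2-fold higher with each hairpin, and 540 genes, 3.29%, at least 2-fold lower. At 4-fold with each hairpin the counts were 347 higher and 31 lower, and at a log2 difference of 3 they were 66 and 3. No tested gene was at least 2-fold higher with one of the hairpins and 2-fold lower with the other, and among the called genes 0 had hairpins on opposite sides of shLuc. The hairpins share the single shLuc library, so this sameness of direction is a description and was not tested. The differences were larger with shDDX18#1 for 1202 of the 1490 genes that rose, with medians of 1.78 and 1.46 for the 2 hairpins, and for 695 of the 828 that fell, with medians of -1.28 and -0.97. The median over all tested genes was -0.03 with shDDX18#1 and -0.02 with shDDX18#3. In 148 called genes the hairpins themselves lay at least 2-fold apart.

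**Figure D1:**
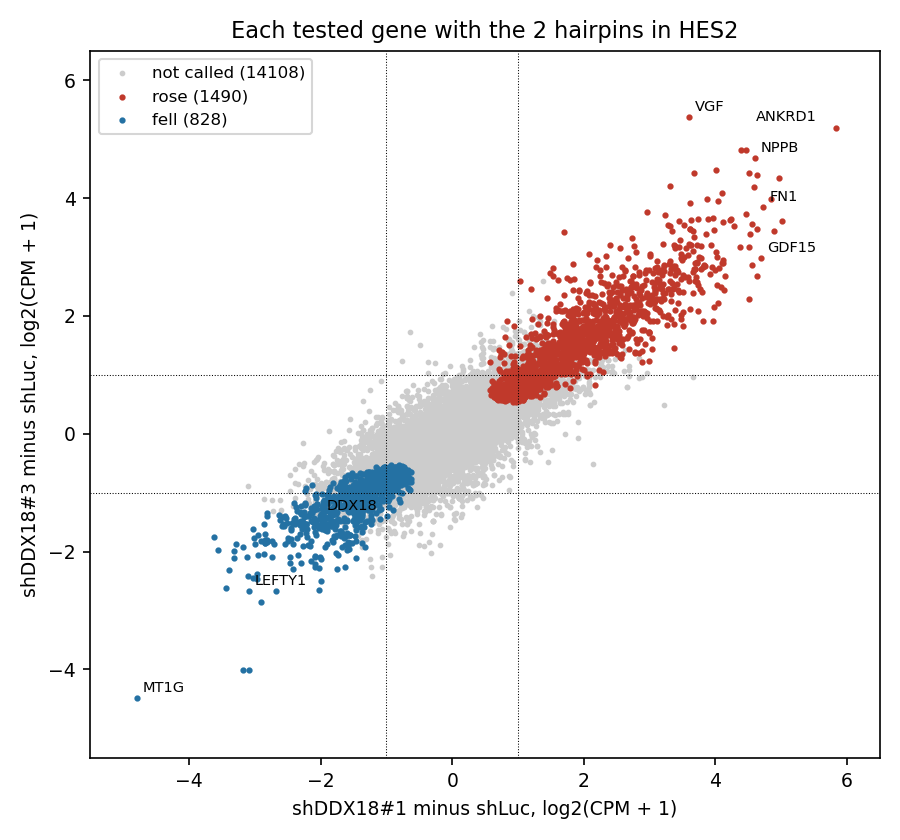
Each of the 16426 tested genes, with its log2(CPM + 1) difference from shLuc with shDDX18#1 on the horizontal axis and with shDDX18#3 on the vertical axis. Red points are the 1490 genes that rose, blue points the 828 that fell and grey points the rest, dotted lines mark 2-fold, and no point lies past 2-fold on opposite sides of shLuc.

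These calls rest on 1 control library and 1 residual degree of freedom per gene, with the rest of the variance estimate borrowed across genes. Limma without the intensity trend called 0 genes at the same threshold, although 2391 higher and 1618 lower genes had an unadjusted p under 0.05 there, while edgeR's quasi-likelihood test on the recovered reads called 1532 that rose and 826 that fell, and DESeq2 called 766 and 230. The share of calls that were rises was 64.3%, against 78.2% when values were rescaled to total reads and 76.9% with DESeq2. At the edge of the 2-fold rule, the genes just inside were ZNF792, at 1.89 and 1.001 with the hairpins, and MID2, at 1.35 and 1.005, and just outside were ADAMTS17, at 0.9998 and 1.08, and GLIS3, at 1.26 and 0.999. On the lower side TOMM7, at -1.18 and -1.002, was inside, and CARMIL2, at -0.999 and -1.13, and SALL3, at -1.70 and -0.998, were outside.

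The share of called genes differed between kinds of transcript. Among 13282 protein-coding genes 10.2% rose and 5.66% fell, among 1579 antisense transcripts 5.26% and 1.52%, and among 451 long intergenic noncoding RNAs 5.10% and 5.32%. Because the library kit is unstranded, reads of an antisense transcript cannot be told apart from those of an overlapping gene, so the antisense shares are uncertain. The share of protein-coding genes that rose went from 6.11% in the lowest quartile of total exon length to 15.9% in the highest, and the share that fell from 6.17% to 4.49%. Median changes in those outer quartiles were -0.14 and 0.11. RNA quality values per library were not used here, and the part of transcript length in the gene-level results was not tested.

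The marker genes of human embryonic stem cells were present in all 3 libraries, with summed levels of 6039 CPM with shLuc, 3135 with shDDX18#1 and 3575 with shDDX18#3 over 14 markers, of which 8 fell and 0 rose. The markers of blood cells and keratinocytes looked for were not among the listed genes, and those of mature neurons summed to 11.2, 6.11 and 16.2 CPM. The markers of fibroblasts or feeders behaved otherwise: 7 of the 9 tested rose, 1 fell, and the sum over 10 went from 663 CPM to 4465 and 3524. With the hairpins most of that sum is collagen and vimentin. With shLuc, shDDX18#1 and shDDX18#3, decorin (DCN) was at 0, 0.965 and 0 CPM and periostin (POSTN) at 1.56, 1.61 and 0.835 CPM. The surface marker THY1, which stem cells share, fell from 325 CPM with shLuc to 100.4 and 177 CPM with the hairpins. Among the markers that rose, LUM was at 4.69, 55.3 and 64.3 CPM in the same order. PDGFRB was at 20.1, 66.9 and 62.9 CPM and FBN1 at 12.7, 76.6 and 80.8 CPM. These sums are referred to below beside the gene groups that move with them. In RNA from whole cultures, fewer cells of a type cannot be told apart from less RNA per cell.

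The 15 largest rises, ranked by the smaller of the 2 hairpin differences among genes with a mean of at least 5 CPM, were led by ANKRD1, which encodes a mechanically induced ankyrin repeat protein of muscle. Its level was 6.48 CPM with shLuc, 424 with shDDX18#1 and 273 with shDDX18#3, and the change was 5.51 (SE 0.26, adjusted p 1.45e-05). The knockdown levels were 65.4-fold and 42.1-fold that of shLuc. Several of the 15 encode secreted peptides or growth factors. The natriuretic peptide gene NPPB was at 0.447 CPM with shLuc, 34.1 with shDDX18#1 and 35.9 with shDDX18#3. Endothelin 1 (EDN1) was at 1.56 CPM with shLuc, 72.7 with shDDX18#1 and 39.8 with shDDX18#3, and the cytokine IL11 at 2.46 CPM with shLuc, 49.6 with shDDX18#1 and 53.5 with shDDX18#3. Insulin-like growth factor 2 (IGF2), an imprinted fetal growth factor, stood at 55.7 CPM with shLuc, 974 with shDDX18#1 and 959 with shDDX18#3, so that its knockdown values were nearly the same. In each of these 4 genes the control library lay far below both knockdown libraries.

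The group also holds structural and regulatory genes. Smooth muscle actin (ACTA2) was at 2.68 CPM with shLuc, 80.8 with shDDX18#1 and 102 with shDDX18#3, and the antisense transcript ACTA2-AS1 rose with it, from 0.671 CPM with shLuc to 34.1 and 45.9 CPM with the hairpins. The library kit is unstranded, so reads of these overlapping genes, and of the neighbouring FAS, cannot be told apart. CDKN2B, an inhibitor of the G1 cyclin-dependent kinases, was at 3.13 CPM with shLuc, 93.6 with shDDX18#1 and 87.7 with shDDX18#3. The fibrillar collagen gene COL3A1 was at 36.7 CPM with shLuc, 938 with shDDX18#1 and 787 with shDDX18#3. Fibronectin (FN1) was the most abundant of the 15, at 1025 CPM with shLuc, 27157 with shDDX18#1 and 14763 with shDDX18#3, with hairpins that differed more than those of COL3A1. The zinc finger gene BNC1 had 0 reads with shLuc and 15.4 and 14.5 CPM with the hairpins, which is at least 23.0-fold and 21.6-fold higher when shLuc is set at the floor of 3 reads. MUC19, MARCH4, SRPX2 and ERBB4, a receptor for neuregulins, complete the 15, whose changes ran from 3.92 for IL11 to 5.51 for ANKRD1.

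The 15 largest falls were headed by metallothioneins, described below. After them came CNMD, encoding chondromodulin, at 42.7 CPM with shLuc, 4.83 with shDDX18#1 and 5.01 with shDDX18#3, and LEFTY1, a secreted inhibitor of NODAL, at 57.0 CPM with shLuc, 5.79 with shDDX18#1 and 8.08 with shDDX18#3. NRARP, a feedback inhibitor of Notch signalling, was at 42.5 CPM with shLuc, 5.79 with shDDX18#1 and 5.85 with shDDX18#3. In these 3 genes the control library stood far above both knockdown libraries. The long noncoding RNA MIAT went from 115 CPM with shLuc to 13.2 and 20.3 CPM with the hairpins, and the glycolytic enzyme gene ALDOC from 91.0 CPM with shLuc to 7.72 and 17.5 CPM with the hairpins. CPNE7, CDA, SCN4A, LINC00698, NT5M and PLA2G3 also belong to the group, with changes from -2.15 for NT5M to -2.76 for CPNE7. The calls of NT5M and SCN4A were lost with DESeq2.

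**Figure D2:**
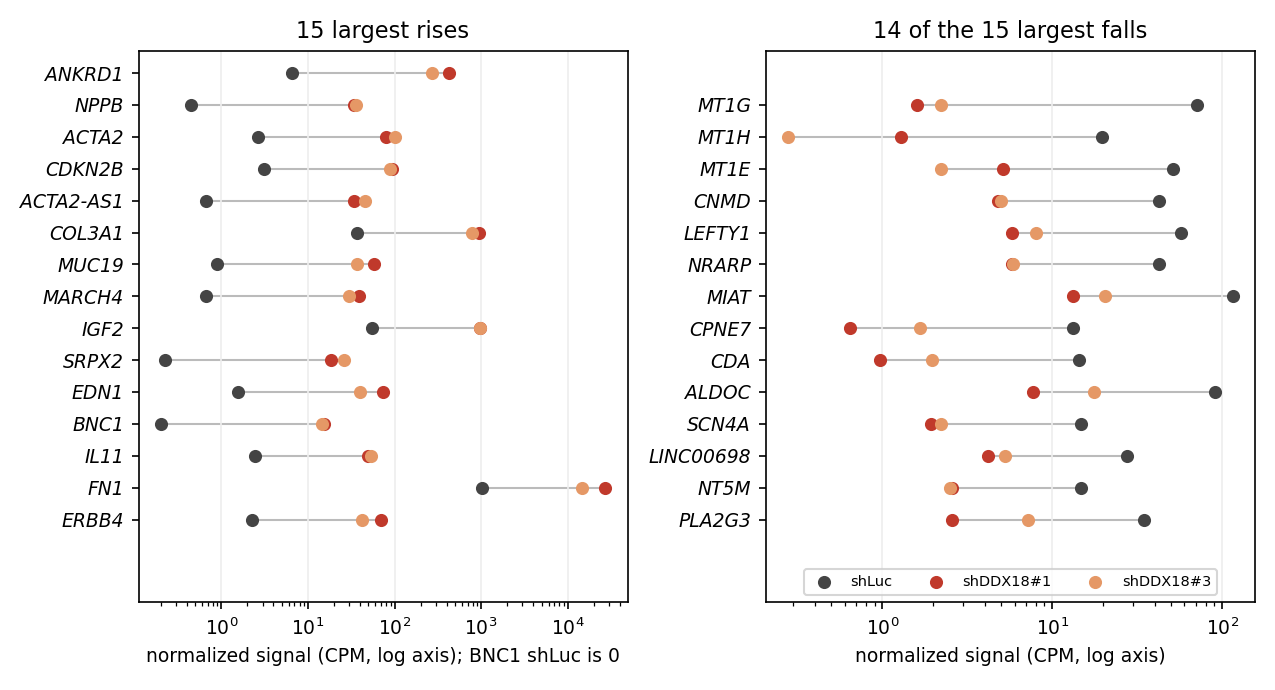
Level in CPM, on a log axis, of the 15 genes with the largest rise and 14 of the 15 with the largest fall with both hairpins; dark points are shLuc, red points shDDX18#1 and light orange points shDDX18#3, and BNC1, with 0 reads in shLuc, is drawn at the left edge. In every gene both knockdown libraries lie on the same side of shLuc, as the rule for choosing them requires.

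In the lists of the nucleolus and the ribosome every called gene fell. Among 13 nucleolar DEAD-box helicases 2 fell and 0 rose, where 5.04% of all tested genes fell and 9.07% rose. The median change was -0.19, beside -0.03 for all tested genes. The helicases that fell were DDX18, which the hairpins target, and DDX21, the only other member called. DDX21, which also acts on RNA polymerase I transcription, was at 488 CPM with shLuc, 269 with shDDX18#1 and 316 with shDDX18#3. DDX10 and DDX51 did not pass, with changes of -0.65 (adjusted p 0.0806) and -0.74 (adjusted p 0.0620). Of 14 genes of the RNA polymerase I machinery 3 fell and 0 rose, with a median of -0.23. These were the enzyme subunit gene POLR1B, at 96.4 CPM with shLuc, 51.5 with shDDX18#1 and 59.3 with shDDX18#3, the promoter factor gene UBTF, which went from 295 CPM with shLuc to 159.6 and 179.6 CPM with the hairpins, and TAF1D, of the same initiation complex, from 136 CPM with shLuc to 69.5 and 92.2 CPM with the hairpins. None of these 4 reached 2-fold with either hairpin.

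Scaffold and small nucleolar particle proteins gave 5 falls and 0 rises among 14 genes and a median of -0.73. Fibrillarin (FBL), the methyltransferase of the box C/D particle, was at 292 CPM with shLuc, 120.3 with shDDX18#1 and 172 with shDDX18#3 (change -1.01, SE 0.23, adjusted p 0.0191). Its partners NOP56 and NOP58 fell by 0.75 and 0.99 on the log2 scale. NAT10, which acetylates ribosomal RNA, went from 182 CPM with shLuc to 74.3 and 95.2 CPM with the hairpins, and NPM3 from 70.2 CPM with shLuc to 27.0 and 32.6 CPM with the hairpins; NPM3 alone of the list was at least 2-fold lower with each hairpin. The abundant scaffold genes NPM1 and NCL did not pass the test: NPM1 was at 1538 CPM with shLuc, 825 with shDDX18#1 and 1062 with shDDX18#3 (change -0.72, adjusted p 0.115) and NCL at 1519 CPM with shLuc, 780.0 with shDDX18#1 and 1055 with shDDX18#3 (change -0.74, adjusted p 0.111). DKC1, the pseudouridine synthase of the H/ACA particle, had a change of -0.72 with an adjusted p of 0.0519.

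Few subunit assembly factors were called. For the small subunit 2 of 32 genes fell, TBL3 and WDR75, both of the processome, with changes of -0.87 and -0.66, and 0 rose (median -0.37), a share near the 5.04% of all tested genes that fell. For the large subunit 5 of 32 fell, 0 rose and the median was -0.39. MDN1, the giant AAA ATPase that strips factors from the pre-60S particle, was at 622 CPM with shLuc, 281 with shDDX18#1 and 402 with shDDX18#3. WDR12, which shares the PeBoW complex with PES1, went from 94.6 CPM with shLuc to 47.3 and 61.0 CPM with the hairpins, while PES1 had a change of -0.25 (adjusted p 0.401). RSL24D1 and RRP1B changed by -0.64 and -0.67, and GNL3, which encodes nucleostemin, by -0.66.

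Genes for cytosolic ribosomal proteins gave 18 falls and 0 rises among 76, with a median of -0.65, and none was 2-fold lower with each hairpin. Together they held 5.59% of the reads with shLuc, 3.21% with shDDX18#1 and 3.78% with shDDX18#3. RPL3 was at 2166 CPM with shLuc, 811 with shDDX18#1 and 1145 with shDDX18#3, RPL12 at 961 CPM with shLuc, 338 with shDDX18#1 and 497 with shDDX18#3, and RPS9 went from 841 CPM with shLuc to 357 and 465 CPM with the hairpins. RPS19 did not pass, at 803 CPM with shLuc, 814 with shDDX18#1 and 754 with shDDX18#3 (adjusted p 0.939). RPL5 and RPL11, the MDM2-binding members, had changes of -0.78 (adjusted p 0.0660) and -0.47 (adjusted p 0.194). Many of these genes have near-identical processed copies between which reads can be divided, so single values are uncertain. The small nucleolar RNA host genes, whose introns carry guide RNAs for ribosomal RNA modification, gave 6 falls and 0 rises among 15 (median -0.74). SNHG1 was at 222 CPM with shLuc, 91.7 with shDDX18#1 and 118 with shDDX18#3, SNHG4 went from 20.6 CPM with shLuc to 3.86 and 6.68 CPM with the hairpins, and GAS5 from 173 CPM with shLuc to 104 and 107 CPM with the hairpins.

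Many of these nucleolar calls lie near the threshold. With values rescaled to total reads, calls were lost for DDX21, UBTF, POLR1B, TAF1D, FBL, NOP56, NOP58, TBL3, WDR75, WDR12, MDN1, RRP1B, RSL24D1, RPL3, RPL10A, RPL12, RPS9, GAS5, SNHG4 and SNHG6, and with DESeq2 for the same genes other than FBL and the 4 ribosomal protein genes, and also for NPM3.

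**Figure D3:**
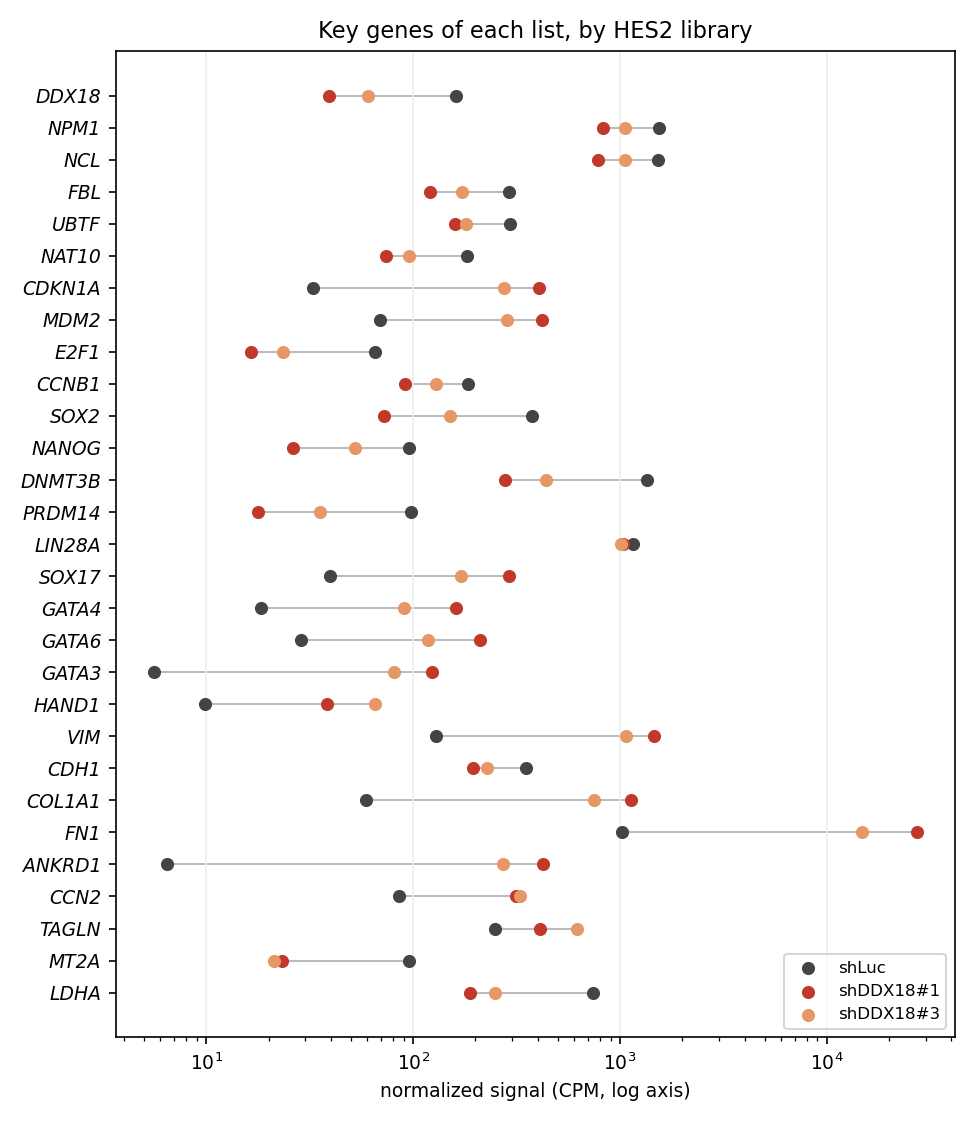
Level in CPM, on a log axis, of 29 genes taken from the lists described in the text; dark points are shLuc, red points shDDX18#1 and light orange points shDDX18#3. DDX18 and the stem cell genes SOX2, DNMT3B and PRDM14 lie lower with both hairpins, NPM1, NCL and LIN28A, which did not pass the test, lie closer to shLuc, and CDKN1A, GATA3, COL1A1, FN1 and ANKRD1 lie higher with both hairpins.

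Most genes of the p53 pathway rose. Of 34 tested genes 27 rose, 1 fell and 6 did neither, with a median of 1.34. Among the cell cycle targets 7 of 8 rose. CDKN1A, which encodes the cyclin-dependent kinase inhibitor p21, was at 32.9 CPM with shLuc, 404 with shDDX18#1 and 275 with shDDX18#3 (change 3.31, SE 0.24, adjusted p 6.87e-05). The antiproliferative gene BTG2 was at 22.1 CPM with shLuc, 195 with shDDX18#1 and 136 with shDDX18#3, and the kinase gene PLK2 at 22.4 CPM with shLuc, 191 with shDDX18#1 and 138 with shDDX18#3. In each case shDDX18#1 was the higher of the knockdown libraries. MDM2, both a target and the main negative regulator of p53, went from 68.9 CPM with shLuc to 421 and 285 CPM with the hairpins. MDM4 had a change of -0.01.

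Among genes of cell death 8 of 11 rose. The death receptor gene FAS was at 2.68 CPM with shLuc, 43.8 with shDDX18#1 and 33.1 with shDDX18#3, subject to the overlap with ACTA2 named above, and the receptor genes TNFRSF10A and TNFRSF10B had changes of 1.51 and 1.11. BAX and BBC3, genes of mitochondrial apoptosis, did not pass, at 0.63 and 0.82, and PMAIP1 had a change of -0.70. Among targets in repair, metabolism and secretion 11 of 12 rose. GDF15, a secreted stress cytokine, was at 6.71 CPM with shLuc, 198 with shDDX18#1 and 59.6 with shDDX18#3, with shDDX18#1 more than 3-fold above shDDX18#3. ZMAT3, SPATA18 and EDA2R had changes of 2.46, 2.65 and 2.27, and TRIAP1, at 0.47, was the member that did not pass.

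Genes of DNA replication went the other way. Of 42 tested genes of S phase 24 fell and 0 rose, with a median of -0.97. The transcription factor gene E2F1 was at 65.5 CPM with shLuc, 16.4 with shDDX18#1 and 23.4 with shDDX18#3 (change -1.69, SE 0.27, adjusted p 0.00396), and E2F2 at 14.5 CPM with shLuc, 3.54 with shDDX18#1 and 3.62 with shDDX18#3. E2F8 fell as well, whereas E2F3 and E2F7 had changes of -0.43 and 0.29 and did not pass. All 6 genes of the MCM2-7 helicase fell, by 0.97 for MCM3 to 1.25 for MCM7 on the log2 scale, and MCM10, a replication initiation factor, fell by 1.26. Licensing factors CDC6 and CDT1 fell by 1.09 and 1.13. Of the replication enzymes 8 of 21 fell, among them CHAF1A, of the histone chaperone CAF-1, from 199.6 CPM with shLuc to 72.4 and 98.6 CPM with the hairpins, and UHRF1, the reader of hemimethylated DNA, from 80.5 CPM with shLuc to 27.7 and 37.9 CPM with the hairpins. TYMS, at 0.53, and LIG1, at 0.04, were on the other side of zero.

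Genes of G2 and mitosis fell in smaller number: 10 of 38, with 0 rises and a median of -0.66. The checkpoint kinase gene BUB1 was at 201 CPM with shLuc, 69.2 with shDDX18#1 and 102 with shDDX18#3, topoisomerase TOP2A at 358 CPM with shLuc, 152 with shDDX18#1 and 206 with shDDX18#3, and cyclin A2 (CCNA2) went from 155 CPM with shLuc to 59.9 and 86.6 CPM with the hairpins. CCNB1 and CDK1, the mitotic cyclin and its kinase, did not pass, with changes of -0.76 (adjusted p 0.0519) and -0.54 (adjusted p 0.121). The calls of E2F2, E2F8, CCNA2 and NUSAP1 were lost with DESeq2, and those of E2F8, BUB1, CCNA2, NUSAP1 and TOP2A when values were rescaled to total reads.

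**Figure D4:**
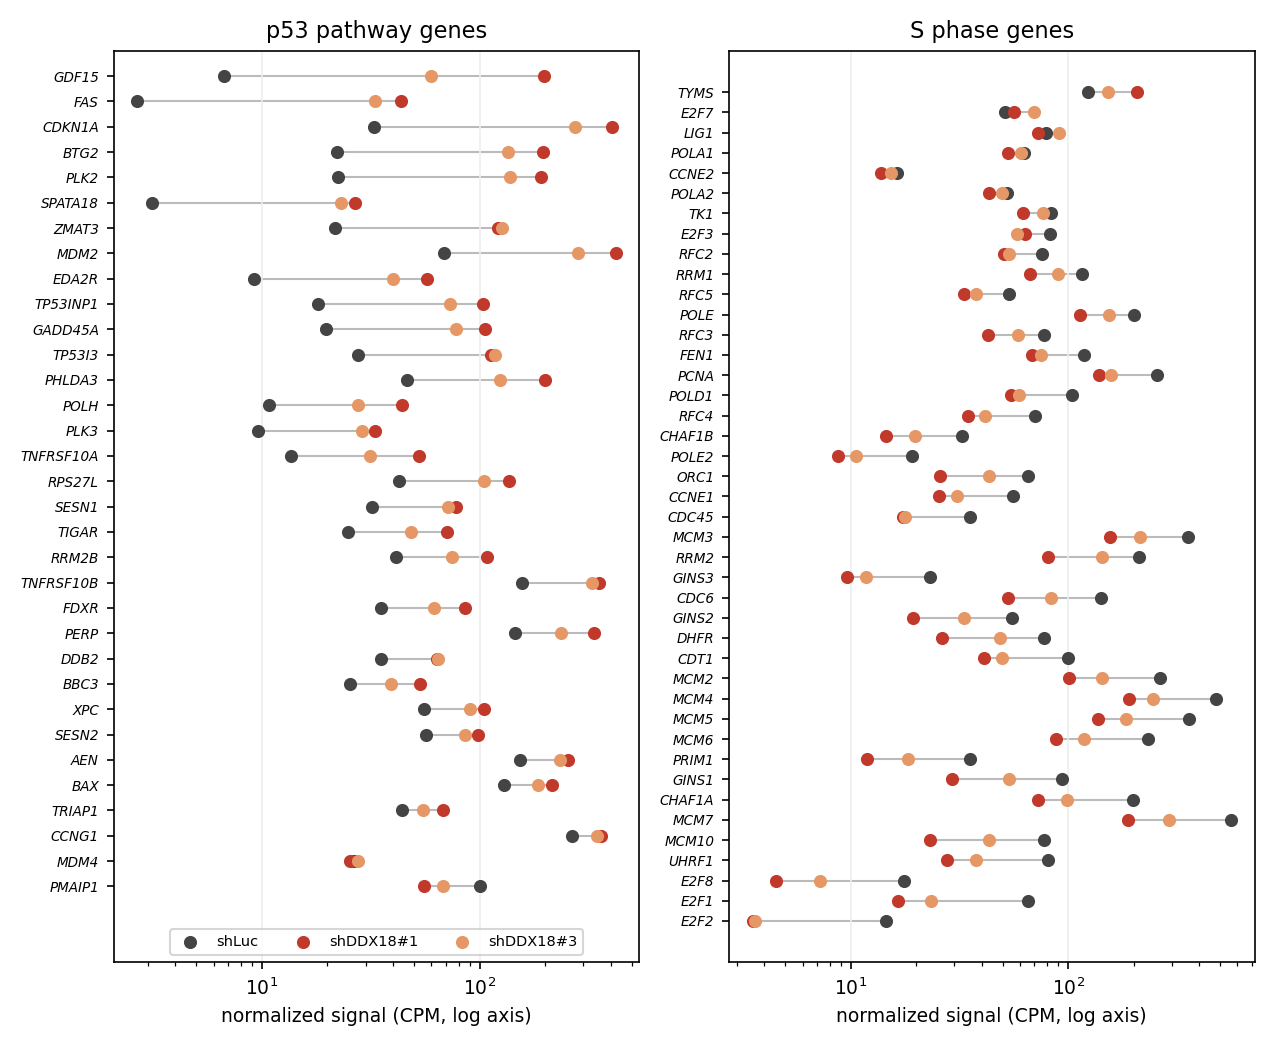
Level in CPM, on a log axis, of tested genes of the p53 pathway (left, 33 of the 34 genes) and of S phase (right, 42 genes), ordered by change; dark points are shLuc, red points shDDX18#1 and light orange points shDDX18#3. On the left shLuc is the lowest point for most genes and PMAIP1 at the bottom has the reverse order, and on the right shLuc is the highest point for most genes, with TYMS and E2F7 at the top as exceptions.

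Promoters of the S phase genes and of the G2 and mitosis genes are shown because every called member of these lists fell. Sequences come from RefSeq on GRCh38.p14, matched by symbol for 11474 of the tested genes; motifs were searched on both strands from 250 bases before to 50 bases after each start, and up to 30 bases after the start are printed. The E2F site, searched as TTTGGCGC or TTTCCCGC, was in 19 of 37 S phase promoters found (51.4%), in 3.55% of the promoters of all tested genes, in 6.02% of those of the genes that fell and in 2.31% of all promoters in the table. The CHR element of genes repressed by the DREAM complex, searched as TTTGAA, was in 20 of 31 promoters of the G2 and mitosis genes (64.5%). It was in 9.69% of tested genes, 11.2% of all genes that fell and 5 of the 8 promoters of list members that fell (62.5%). Printed are the members with a match and the largest difference with both hairpins, E2F2 on the minus strand of chr1:23531204-23531483, with its match starting 42 bases before the start, and NUSAP1, a spindle protein gene, on the plus strand of chr15:41332631-41332910, with its match starting at base 14 after the start. Capitals mark the match.
E2F2: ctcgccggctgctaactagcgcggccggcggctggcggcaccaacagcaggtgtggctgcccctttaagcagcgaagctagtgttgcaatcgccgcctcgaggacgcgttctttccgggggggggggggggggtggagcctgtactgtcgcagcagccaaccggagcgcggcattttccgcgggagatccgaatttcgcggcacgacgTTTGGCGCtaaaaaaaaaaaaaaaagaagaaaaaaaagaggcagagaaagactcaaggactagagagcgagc
NUSAP1: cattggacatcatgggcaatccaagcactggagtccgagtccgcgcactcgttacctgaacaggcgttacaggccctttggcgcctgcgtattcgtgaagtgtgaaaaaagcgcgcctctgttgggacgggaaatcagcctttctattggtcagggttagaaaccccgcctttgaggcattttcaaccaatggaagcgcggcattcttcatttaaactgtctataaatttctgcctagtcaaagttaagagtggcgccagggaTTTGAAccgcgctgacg
E2F2 was at 14.5, 3.54 and 3.62 CPM and NUSAP1 at 120.5, 53.1 and 68.5 CPM. A match describes the letters and is not evidence of binding.

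Most pluripotency genes fell, with exceptions. Of 34 tested genes 21 fell and 1 rose, and the median was -1.12. SOX2 was at 377 CPM with shLuc, 72.7 with shDDX18#1 and 151 with shDDX18#3 (change -1.83, SE 0.34, adjusted p 0.00811). NANOG was at 95.01 CPM with shLuc, 26.4 with shDDX18#1 and 52.6 with shDDX18#3, and PRDM14, a repressor of differentiation genes, at 97.7 CPM with shLuc, 17.7 with shDDX18#1 and 35.4 with shDDX18#3. For these 3 genes shDDX18#1, which also had less DDX18, was the lowest library. OTX2, a factor of primed pluripotency and of anterior neural tissue, was the gene that rose, by 1.49. POU5F1, which encodes OCT4, could not be read: it was listed at 3.58 CPM with shLuc, 0.322 with shDDX18#1 and 1.39 with shDDX18#3, while its near-identical copies together were at 263, 59.5 and 101 CPM, so reads are divided among copies.

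Of 7 chromatin and telomere genes of the stem cell state 5 fell. The de novo DNA methyltransferase gene DNMT3B was at 1349 CPM with shLuc, 277 with shDDX18#1 and 439 with shDDX18#3 (change -1.95, SE 0.28, adjusted p 0.00220). TERT, the telomerase reverse transcriptase, went from 27.3 CPM with shLuc to 3.22 and 6.96 CPM with the hairpins, and the shelterin gene TERF1 fell by 1.98. Of the RNA-binding proteins LIN28B went from 182 CPM with shLuc to 85.3 and 97.5 CPM with the hairpins, but LIN28A, its more abundant paralog, had a change of -0.18 (adjusted p 0.700). The NODAL inhibitor gene LEFTY2 was at 56.3 CPM with shLuc, 18.0 with shDDX18#1 and 13.6 with shDDX18#3, lower with shDDX18#3 than with shDDX18#1, and the tetraspanin gene CD9 at 128 CPM with shLuc, 36.7 with shDDX18#1 and 42.9 with shDDX18#3. SALL4, GDF3 and PODXL did not pass, at -0.22, -0.20 and 1.01. The calls of NANOG and SOX2 were lost when values were rescaled to total reads and with DESeq2, and that of NANOG also without a filter on low values.

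Regulators of several lineages rose in the same libraries. Of 18 endoderm genes 14 rose and 0 fell (median 2.48). SOX17 was at 39.6 CPM with shLuc, 289.9 with shDDX18#1 and 171 with shDDX18#3, GATA4 at 18.3 CPM with shLuc, 162 with shDDX18#1 and 90.5 with shDDX18#3, and GATA6 went from 28.6 CPM with shLuc to 209 and 119 CPM with the hairpins. All 3 are transcription factors of definitive and primitive endoderm, and in each shDDX18#1 lay above shDDX18#3. FOXA2, another endoderm factor, did not pass (51.2, 106 and 55.7 CPM, adjusted p 0.267). HNF4A, a factor of visceral endoderm and liver, was at 1.79 CPM with shLuc, 62.7 with shDDX18#1 and 24.2 with shDDX18#3, and the apolipoprotein gene APOA1 at 4.02 CPM with shLuc, 124 with shDDX18#1 and 31.2 with shDDX18#3, with the hairpins far apart; its call was lost with DESeq2. Of the other hepatocyte markers ALB was not listed and TTR was at 0, 1.93 and 0.835 CPM.

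Of 15 tested genes of trophoblast and amnion 12 rose and 0 fell (median 2.24). GATA3 was at 5.59 CPM with shLuc, 123 with shDDX18#1 and 81.0 with shDDX18#3, and CDX2 at 0.447 CPM with shLuc, 18.7 with shDDX18#1 and 6.96 with shDDX18#3. HAND1 was at 9.84 CPM with shLuc, 38.3 with shDDX18#1 and 65.7 with shDDX18#3, with the order of the hairpins reversed. The binding protein gene IGFBP3, which is also listed as a YAP and TEAD target, was at 5.14 CPM with shLuc, 181 with shDDX18#1 and 65.4 with shDDX18#3, the hypoxia-inducible factor gene EPAS1 went from 2.68 CPM with shLuc to 63.1 and 43.4 CPM with the hairpins, and MSX2, a BMP-responsive homeobox gene, from 4.02 CPM with shLuc to 85.9 and 37.9 CPM with the hairpins. TFAP2A, TFAP2C and ELF3 did not pass, at 0.96, 0.25 and 0.22. These genes are not specific to trophoblast: GATA3, HAND1, MSX2 and EPAS1 are also active in mesoderm or its derivatives.

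Mesoderm gave 10 rises and 0 falls among 18 genes (median 1.72). Cardiac actin (ACTC1) was at 43.1 CPM with shLuc, 480.4 with shDDX18#1 and 541 with shDDX18#3 (change 3.53, SE 0.19, adjusted p 2.02e-05), BMP4 at 5.59 CPM with shLuc, 86.2 with shDDX18#1 and 47.9 with shDDX18#3, and FOXC2 rose by 3.02. MESP1 (-1.75), KDR (0.09), TNNT2 (-0.28) and FGF8 (-0.32) did not pass. Neural ectoderm was mixed: 3 of 13 genes rose and 1 fell, beside 9.07% and 5.04% of all tested genes, with a median of 0.45. PAX6 was at 1.12 CPM with shLuc, 16.1 with shDDX18#1 and 6.96 with shDDX18#3, low even in the knockdown, and FOXB1 went from 12.1 CPM with shLuc to 1.93 and 2.51 CPM with the hairpins; the call of PAX6 was lost under rescaling to total reads and that of FOXB1 with DESeq2. CDH2, which encodes N-cadherin and is shared with mesenchymal cells, was at 137 CPM with shLuc, 684 with shDDX18#1 and 503 with shDDX18#3. NES, DCX and TUBB3 did not pass, at -0.11, -0.92 and 0.31.

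**Figure D5:**
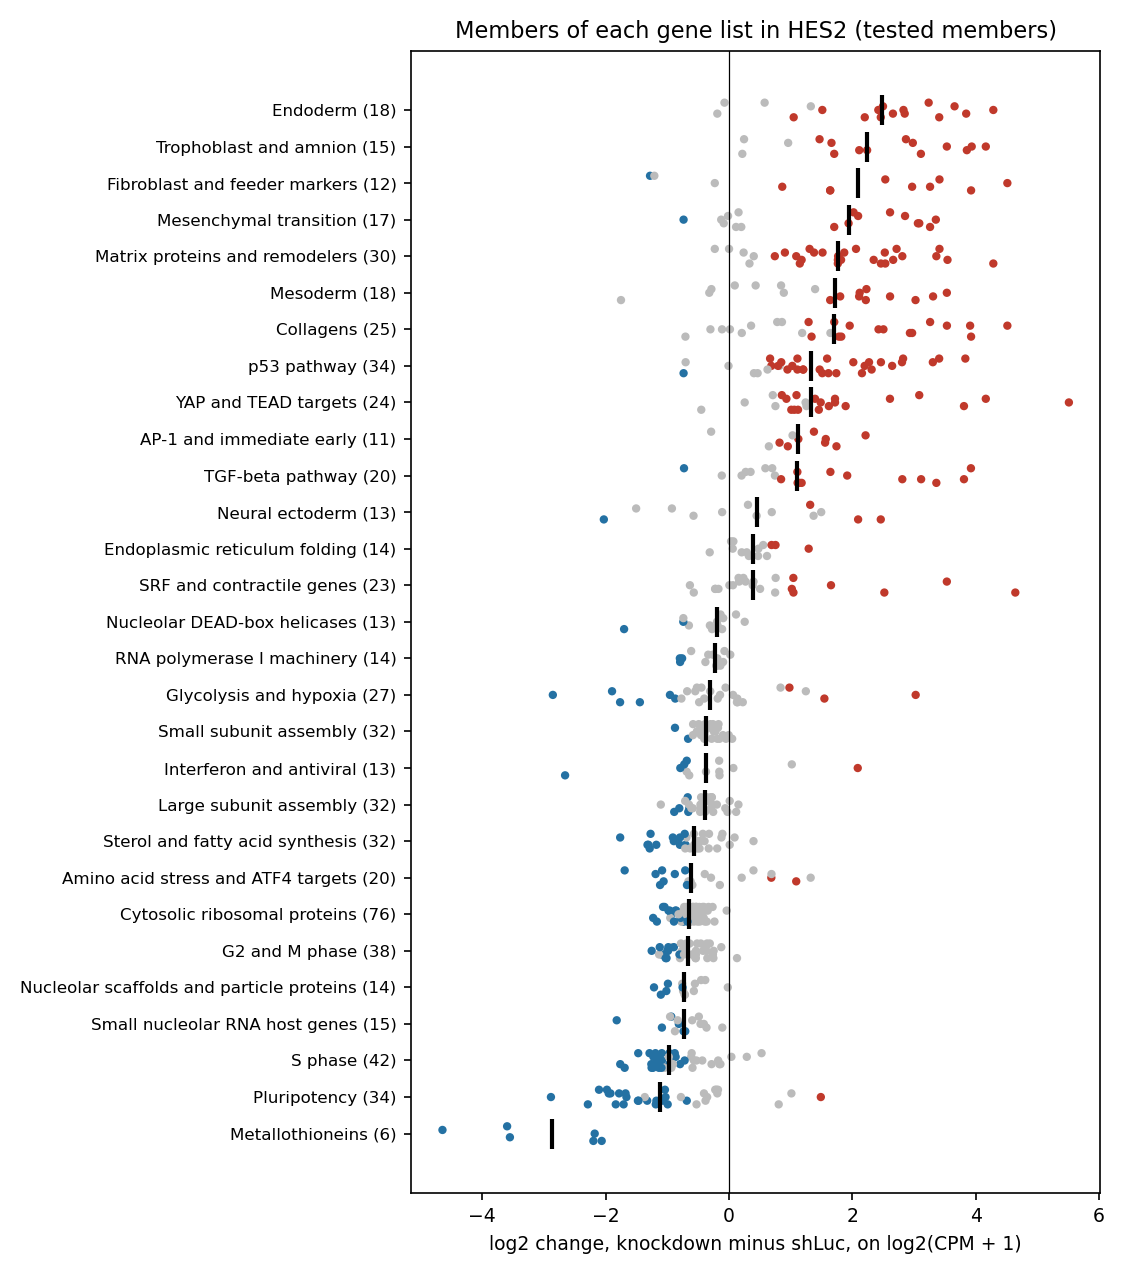
Change of each tested member of 29 gene lists, as the log2(CPM + 1) difference of the knockdown libraries from shLuc on the horizontal axis; red points rose, blue points fell, grey points did not pass, black bars are medians and numbers in brackets are the genes tested. Endoderm has the highest median (2.48) and metallothioneins the lowest (-2.87), and the ribosome and nucleolus lists lie between -0.74 and -0.19.

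Mesenchymal and matrix genes were higher in the knockdown libraries. Of 17 genes of the mesenchymal transition 10 rose and 1 fell (median 1.94). Of its transcription factors ZEB1 was at 0.894 CPM with shLuc, 21.2 with shDDX18#1 and 15.9 with shDDX18#3, ZEB2 at 4.25 CPM with shLuc, 39.3 with shDDX18#1 and 34.8 with shDDX18#3, and SNAI2 at 2.46 CPM with shLuc, 32.8 with shDDX18#1 and 24.5 with shDDX18#3. SNAI1 did not pass, at 13.6 CPM with shLuc, 13.2 with shDDX18#1 and 16.7 with shDDX18#3 (adjusted p 0.854). Vimentin (VIM), the mesenchymal intermediate filament, went from 129 CPM with shLuc to 1453 and 1074 CPM with the hairpins, and E-cadherin (CDH1) fell, from 351 CPM with shLuc to 194 and 228 CPM with the hairpins. Epithelial keratin genes did not follow E-cadherin: KRT8, KRT18 and KRT19 rose, by 2.02, 1.71 and 1.94, and EPCAM, OCLN and CLDN6 did not pass, at 0.16, -0.13 and -0.08. The call of CDH1 was lost without a filter, under rescaling to total reads and with DESeq2.

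Of 25 collagen genes 15 rose and 0 fell (median 1.71), and all 7 fibrillar genes rose (median 2.97). COL1A1 was at 59.5 CPM with shLuc, 1124 with shDDX18#1 and 749 with shDDX18#3 (change 3.93, SE 0.26, adjusted p 5.23e-05), and COL5A1 at 84.5 CPM with shLuc, 982 with shDDX18#1 and 683 with shDDX18#3. The basement membrane gene COL4A1 was at 208 CPM with shLuc, 1409 with shDDX18#1 and 889.7 with shDDX18#3. COL6A3 rose by 3.91 while its partners COL6A1 and COL6A2, at 0.21 and 0.02, did not pass. Of 30 further matrix proteins and remodelers 25 rose and 0 fell (median 1.77). TGFBI was at 26.2 CPM with shLuc, 331 with shDDX18#1 and 301 with shDDX18#3, LTBP2, a latent TGF-beta binding protein gene, at 11.0 CPM with shLuc, 81.4 with shDDX18#1 and 84.4 with shDDX18#3, and the small proteoglycan gene LUM at 4.69 CPM with shLuc, 55.3 with shDDX18#1 and 64.3 with shDDX18#3. The laminin genes moved less: 4 of 6 rose, with a median of 0.83 and 0 at 2-fold with each hairpin. The fibroblast and feeder marker sum of 663, 4465 and 3524 CPM moves with these lists, and with those of mesoderm, YAP and TEAD targets, contractile genes and TGF-beta signalling, shares COL1A1, COL1A2, COL3A1, VIM, LUM and FBN1 with them, and its part in their rise was not tested. A longer list of 14 fibroblast and feeder genes gave 9 rises and 1 fall among 12 tested (median 2.09).

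Genes controlled by YAP and TEAD, the effectors of the Hippo pathway, gave 18 rises and 0 falls among 24 (median 1.33). Beside ANKRD1, CCN1 was at 80.5 CPM with shLuc, 228 with shDDX18#1 and 217 with shDDX18#3 and CCN2, or connective tissue growth factor, at 85.8 CPM with shLuc, 314 with shDDX18#1 and 329 with shDDX18#3. The tissue factor gene F3 went from 7.15 CPM with shLuc to 85.6 and 54.3 CPM with the hairpins, and TGFB2 from 0.447 CPM with shLuc to 21.6 and 17.3 CPM with the hairpins. LATS2 did not pass, at 0.75. The TEAD site, searched as GGAATG, was in 8 of 19 promoters of this list (42.1%), against 10.9% of tested genes and 3836 of all 27305 promoters. It was in 5 of the 14 promoters of members that rose (35.7%), against 13.0% for all genes that rose. The AP-1 site TGACTCA was in 1 of 19 (5.26%), against 3.07% of tested genes. Shown are ANKRD1, on the minus strand of chr10:90921058-90921337, with TEAD matches starting 220 and 128 bases before the start, and F3, on the minus strand of chr1:94541730-94542009, with an AP-1 match on the opposite strand starting 210 bases before the start.
ANKRD1: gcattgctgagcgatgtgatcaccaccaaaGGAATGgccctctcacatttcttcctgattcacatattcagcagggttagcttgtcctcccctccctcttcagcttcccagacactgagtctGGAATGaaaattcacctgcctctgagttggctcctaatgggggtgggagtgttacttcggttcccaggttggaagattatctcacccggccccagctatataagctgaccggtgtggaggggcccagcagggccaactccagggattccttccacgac
F3: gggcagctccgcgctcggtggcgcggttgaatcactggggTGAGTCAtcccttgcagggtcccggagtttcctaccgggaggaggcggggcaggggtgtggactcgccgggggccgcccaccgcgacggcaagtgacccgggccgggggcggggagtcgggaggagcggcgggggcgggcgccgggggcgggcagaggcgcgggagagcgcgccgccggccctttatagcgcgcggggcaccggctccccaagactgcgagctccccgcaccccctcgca
Capitals mark the matches.

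Contractile genes controlled by SRF divided. Of 23 tested 7 rose and 0 fell, with a median of only 0.38. Of the actins ACTA2 and ACTC1 rose, and ACTB, ACTG1, ACTA1 and ACTG2 did not pass, at 0.07, 0.23, 0.51 and -0.57. TPM1, a tropomyosin gene, was at 255 CPM with shLuc, 796 with shDDX18#1 and 812 with shDDX18#3, caldesmon (CALD1) at 394 CPM with shLuc, 794 with shDDX18#1 and 835 with shDDX18#3, and the coactivator gene MYOCD went from 0.894 CPM with shLuc to 9.98 and 9.75 CPM with the hairpins. TAGLN was at 248 CPM with shLuc, 412 with shDDX18#1 and 617 with shDDX18#3 (change 1.02, adjusted p 0.0288), a call lost without a filter and under rescaling to total reads. CNN1 did not pass (14.98, 11.6 and 19.5 CPM) and SRF had a change of -0.22. The CArG box, to which SRF binds, was in 9 of 19 promoters of the list (47.4%) and in 1.07% of tested genes, but in only 1 of the 4 promoters of members that rose. That promoter is of ACTC1, on the minus strand of chr15:34795520-34795799, with the match starting 109 bases before the start.
ACTC1: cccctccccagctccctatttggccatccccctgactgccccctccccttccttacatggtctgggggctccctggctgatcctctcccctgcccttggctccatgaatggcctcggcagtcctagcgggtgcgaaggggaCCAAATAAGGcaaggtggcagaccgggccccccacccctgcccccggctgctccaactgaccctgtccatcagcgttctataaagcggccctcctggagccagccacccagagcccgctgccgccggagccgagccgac
Capitals mark the CArG box.

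Genes of TGF-beta signalling gave 12 rises and 1 fall among 20 (median 1.11). Of the ligands TGFB1 was at 102 CPM with shLuc, 255 with shDDX18#1 and 194 with shDDX18#3, TGFB2 is given above, and INHBA, the activin A subunit, had 0 reads with shLuc and 10.9 and 5.29 CPM with the hairpins, which is at least 16.3-fold and 7.89-fold higher against the floor of 3 reads. Of the receptors TGFBR1 and TGFBR3 rose by 1.11 and 1.18, TGFBR2 did not pass at 0.59, and the activin receptor gene ACVR2B fell by 0.73. The feedback inhibitor genes SMAD7 and BAMBI rose by 0.85 and 1.65, while SKIL, TGIF1 and PMEPA1 did not pass, at 0.21, 0.35 and -0.12.

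Of 11 AP-1 and immediate early genes 8 rose and 0 fell (median 1.13). JUN was at 35.5 CPM with shLuc, 100.4 with shDDX18#1 and 88.0 with shDDX18#3, FOSL1 at 30.4 CPM with shLuc, 85.6 with shDDX18#1 and 99.4 with shDDX18#3, and FOSL2 went from 9.39 CPM with shLuc to 56.0 and 39.8 CPM with the hairpins. FOS, at 12.5, 20.6 and 19.8 CPM, did not pass (adjusted p 0.170), nor did EGR1, at 1.03. ATF3 and MAFF rose, by 1.13 and 0.95, and both calls were lost under rescaling to total reads and with DESeq2.

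Metallothioneins, small cysteine-rich proteins that bind zinc and copper, had the lowest median of the 29 lists: all 6 tested genes fell, each at least 2-fold with both hairpins, with a median of -2.87. MT1G was at 71.5 CPM with shLuc, 1.61 with shDDX18#1 and 2.23 with shDDX18#3 (change -4.64, SE 0.39, adjusted p 1.26e-04). MT1E was at 51.2 CPM with shLuc, 5.15 with shDDX18#1 and 2.23 with shDDX18#3, MT1H at 19.7 CPM with shLuc, 1.29 with shDDX18#1 and 0.278 with shDDX18#3, and MT2A at 95.7 CPM with shLuc, 23.2 with shDDX18#1 and 21.2 with shDDX18#3. MT1E, MT1H and MT2A were lower with shDDX18#3 than with shDDX18#1, the reverse of the order of most genes that fell, and MT1H with shDDX18#3 was 1 read. These genes are near-identical neighbours on chromosome 16, so reads can be divided among them and single values are uncertain. The core of the metal response element, searched as TGCACNC or TGCGCNC, was in all 3 of their promoters found, but also in 39.0% of the promoters of tested genes. The promoter of MT1H, on the plus strand of chr16:56669564-56669843, holds 8 matches, 5 on the strand shown and 3 on the other, in capitals.
MT1H: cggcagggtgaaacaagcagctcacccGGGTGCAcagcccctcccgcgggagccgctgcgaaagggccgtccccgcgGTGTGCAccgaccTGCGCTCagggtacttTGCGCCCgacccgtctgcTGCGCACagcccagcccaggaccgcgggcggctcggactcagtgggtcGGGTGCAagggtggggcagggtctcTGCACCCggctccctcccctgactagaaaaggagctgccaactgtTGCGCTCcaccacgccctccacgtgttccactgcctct

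Metabolic genes fell in part. In glycolysis 5 of 17 genes fell and 0 rose (median -0.52), beside 5.04% and 9.07% of all tested genes. Lactate dehydrogenase A (LDHA) was at 739.5 CPM with shLuc, 188 with shDDX18#1 and 250.1 with shDDX18#3, PGK1 at 789.6 CPM with shLuc, 266 with shDDX18#1 and 316 with shDDX18#3, and ALDOC is given above. GAPDH, ENO1 and PKM did not pass, at -0.45, -0.14 and -0.05. Of 10 genes of the hypoxia response 3 rose and 1 fell, and the median was above that of glycolysis, at 0.49. Among those that rose, NDRG1 was at 4.92 CPM with shLuc, 46.3 with shDDX18#1 and 48.2 with shDDX18#3. VEGFA was at 90.8 CPM with shLuc, 229.8 with shDDX18#1 and 141 with shDDX18#3. PDK1, the kinase that restrains pyruvate dehydrogenase, fell from 171 CPM with shLuc to 49.2 and 41.5 CPM with the hairpins. The call of VEGFA was lost in 5 of the alternatives.

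Of 32 genes of sterol and fatty acid synthesis 12 fell and 0 rose (median -0.57). HMGCS1, which encodes the cytosolic HMG-CoA synthase, was at 456 CPM with shLuc, 187 with shDDX18#1 and 186 with shDDX18#3. INSIG1, a sterol-regulated brake on the pathway, went from 88.3 CPM with shLuc to 33.1 and 36.5 CPM with the hairpins, and the regulator gene SREBF1 from 156 CPM with shLuc to 59.9 and 69.1 CPM with the hairpins.

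Of 15 targets of ATF4, the factor of the amino acid response, 8 fell and 1 rose (median -0.68). The summed level of these targets was 3130 CPM with shLuc, 3822 with shDDX18#1 and 2597 with shDDX18#3. With the 5 factors of the list included, 8 of 20 genes fell and 2 rose (median -0.61). The serine synthesis genes PHGDH and PSAT1 were at 387 CPM with shLuc, 96.9 with shDDX18#1 and 147 with shDDX18#3, and at 380.3 CPM with shLuc, 149.6 with shDDX18#1 and 185 with shDDX18#3. SHMT2, of one-carbon metabolism, and the arginine transporter gene SLC7A1 changed by -1.06 and -1.08, and ASNS by -1.12. ATF4 itself did not pass (512, 469 and 456 CPM, adjusted p 0.695), and DDIT3, which encodes CHOP, rose from 13.9 CPM with shLuc to 31.5 and 29.8 CPM with the hairpins. Of 14 genes of folding in the endoplasmic reticulum 3 rose and 0 fell (median 0.40), beside 9.07% and 5.04% of all tested genes. The 3 were DNAJB9, DNAJC3 and SEL1L, which rose by 1.29, 0.76 and 0.69, while HSPA5, the chaperone BiP, did not pass (change 0.47, adjusted p 0.203). The call of SEL1L was lost in 7 alternatives, and those of DDIT3, DNAJB9 and DNAJC3 with DESeq2.

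Of 26 interferon and antiviral genes 21 were in the deposited values, and 13 passed the filter and were tested. Of these 4 fell and 1 rose (median -0.37), where 5.04% of all tested genes fell and 9.07% rose. BST2, which encodes tetherin, was at 18.6 CPM with shLuc, 0.965 with shDDX18#1 and 3.90 with shDDX18#3, and IFITM1, IFITM2 and IFITM3 fell by 0.79, 0.72 and 0.68; the calls of BST2 and IFITM1 were lost under rescaling to total reads. HLA-B rose, from 8.72 CPM with shLuc to 66.0 and 24.5 CPM with the hairpins; it shares sequence with other class I genes, and its call was lost without a filter, under rescaling to total reads and with DESeq2. The sensor gene IFIH1 and the effector gene IFIT1 were below the filter, at 1.79, 0.644 and 0.278 CPM and at 2.24, 0 and 0 CPM.

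The hairpins can be set side by side in the lists. In the p53 pathway the median difference from shLuc was 1.56 with shDDX18#1 and 1.15 with shDDX18#3, in S phase -1.15 and -0.75, and in endoderm 2.84 and 2.14. Those of pluripotency were -1.30 and -0.95. In 6 lists shDDX18#3 had the median farther from zero: trophoblast and amnion at 1.96 and 2.46, SRF genes at 0.23 and 0.48, neural ectoderm at 0.32 and 0.55, metallothioneins at -2.71 and -3.14, endoplasmic reticulum folding at 0.38 and 0.42, and glycolysis and hypoxia at -0.14 and -0.27. The last list pools glycolysis genes, with medians of -0.69 and -0.47, and hypoxia response genes, at 0.83 and 0.32. In both of these parts shDDX18#1 had the larger difference. Within trophoblast and amnion the transcription factors had medians of 1.89 and 2.38, but the effectors 3.42 and 2.54. Among mesoderm, collagen and matrix genes the medians nearly matched, at 1.68 and 1.66, 1.80 and 1.63, and 1.85 and 1.76. Each hairpin is a single library, so these differences between hairpins have no replicate check.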

How the data were processed

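RNA of HES2 cells was read as 3 TruSeq libraries. Per the submitters' processing notes edgeR 3.26.8, HTSeq 0.11.2, SAMtools 1.9 and Bowtie2 2.3.4.3 were used with hg19; their roles are not given in the sources used here. The authors deposited 1 table of normalized signal for 17929 genes, with 15532 symbols of its own; 600 more came from a gene name table and 1797 genes have none. All values were whole reads, within a tolerance of 0.001, after division by the value of 1 read. Other columns of the table were not used here.

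Values were analysed as log2(CPM + 1) with limma 3.58.1 in R 4.3.3 (trend, Benjamini-Hochberg over 16426 genes); the lone shLuc library is taken to have the spread of the knockdown libraries. Alternatives were other pseudocounts, scalings and filters, a robust prior or no trend in limma, edgeR 4.0.16, DESeq2 1.42.0 and each hairpin alone. Gene types and exon lengths came from GENCODE on GRCh38, promoters from RefSeq.

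Genes named are DDX18, key genes of each list, the 15 largest rises and falls with both hairpins (mean of at least 5 CPM), and up to 4 further members per list; other members are given by their change only. The libraries, lists and rules were chosen with earlier results of these data known, so no list is independent evidence of its direction. Lists are described by counts and medians, without a set test. Of all tested genes 9.07% rose and 5.04% fell, and the list counts are to be read beside these shares. List genes not among the listed symbols are not analysed here, and values of some genes are not reported here. The floors cover counting error only.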

Additional observations from a re-analysis of the deposited data

How the results depend on the processing

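The calls depend on how variance is borrowed across genes: limma without the trend gave 0 rises and 0 falls, with 1016 and 347 at an adjusted p under 0.1, and the cause was not tested. Rises numbered 840 with values rescaled to total reads and 766 with DESeq2, against 1490, and lay between 1073 and 2051 elsewhere. Falls numbered 448 without a filter, 234 with total reads, 230 with DESeq2 and 1456 at an adjusted p under 0.1, against 828, and lay between 669 and 901 elsewhere. Genes at least 2-fold higher with both hairpins, 1327, became 795 with a pseudocount of 4 and 347 at 4-fold, and those lower, 540, became 291, 31 and, at 5 CPM or more, 329. Left to a single hairpin they ranged from 1507 to 2036 higher and 794 to 1377 lower, the larger count being shDDX18#1 alone. Genes on opposite sides of shLuc, 0, became 9 with a pseudocount of 0.25. Of 157 called genes named by the rule 0 reversed in the 11 alternative tests and scalings; 115 kept their call with total reads, 118 with DESeq2 and 0 with limma without the trend. All alternatives reuse the same libraries, and many of these genes were picked for large differences there, so reversals were unlikely from the start. Of 261 list medians under the alternatives 207 were counted as the same, 54 as moved and 0 as reversed. These labels do not measure replicate spread, which 1 library per group cannot give. No paired analysis was possible because each group has 1 library. Each library holds 2966308 to 4271741 reads, so genes near 3 reads are imprecise.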

Other observations

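The groups in these paragraphs were put together after their values were seen, so they are descriptions without a test of the group. Of 17 genes typical of blood vessel endothelium 11 rose and 0 fell. CDH5, which encodes the endothelial cadherin, was at 1.12 CPM with shLuc, 33.5 with shDDX18#1 and 11.1 with shDDX18#3 (change 3.27, adjusted p 0.00502). VWF, the von Willebrand factor gene, was at 7.38 CPM with shLuc, 49.6 with shDDX18#1 and 52.4 with shDDX18#3, and the adhesion receptor gene ADGRL4 went from 1.79 CPM with shLuc to 33.1 and 40.9 CPM with the hairpins. The transcription factor genes ERG and FLI1 rose by 1.84 and 2.35. The receptor genes KDR and FLT1, already at 152 and 92.1 CPM with shLuc, did not pass, at 0.09 and 0.11.

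Of 9 BMP ligands, antagonists and ID genes 8 rose and 0 fell. BMP2 was at 30.9 CPM with shLuc, 249 with shDDX18#1 and 146 with shDDX18#3, and the antagonist gene GREM1 at 4.02 CPM with shLuc, 63.4 with shDDX18#1 and 106 with shDDX18#3. ID1, ID2 and ID4, which encode inhibitors of helix-loop-helix factors, rose by 1.11, 1.97 and 1.91, and ID3 did not pass, at 0.23. Of 7 tested genes of the HOXB cluster 5 rose and 0 fell; HOXB2 went from 0.671 CPM with shLuc to 20.6 and 11.4 CPM with the hairpins, and HOXB9 did not pass (adjusted p 0.0687).

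Next to CDKN2B, the neighbouring gene CDKN2A rose from 0.224 CPM with shLuc to 11.6 and 7.80 CPM with the hairpins. They were the 2 that rose among 8 CDK inhibitor and D cyclin genes, where 9.07% of all tested genes rose. The rest of the 8 did not pass. The CDK inhibitor gene CDKN1A, given above with the p53 pathway, was not put in this group and rose by 3.31. Of 9 noncoding transcripts known from stem cells 7 fell and 0 rose: ESRG was at 636 CPM with shLuc, 212 with shDDX18#1 and 391.8 with shDDX18#3, HPAT5 went from 61.7 CPM with shLuc to 7.72 and 16.4 CPM with the hairpins, and LINC-ROR did not pass, at -0.36. Among 7 imprinted genes 4 rose and 0 fell, among them DIO3, at 9.61 CPM with shLuc, 243 with shDDX18#1 and 111 with shDDX18#3, and MEST, higher with shDDX18#3, at 146 CPM with shLuc, 247 with shDDX18#1 and 385 with shDDX18#3, while SNRPN did not pass, at -0.21. The secreted neuropeptide precursor gene VGF was at 11.0 CPM with shLuc, 144 with shDDX18#1 and 495 with shDDX18#3, more than 3-fold higher with shDDX18#3 than with shDDX18#1. SCG3, the only other gene put in a group with VGF, fell by 1.57, from 54.8 CPM with shLuc to 10.9 and 28.4 CPM with the hairpins.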
